A study of Mus musculus with 18 samples.

Results

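The 33 genes described here are parts of the TGF-beta pathway and the genes it is known to switch on in fibroblasts, among them the contractile genes of the actin cytoskeleton. They came from a fixed list of symbols: 19 pathway components (3 ligands, 3 latent binding proteins, 4 receptors, 3 transducing Smads and 6 inhibitors) and 14 targets (5 secreted or nuclear targets and 9 contractile or adhesion genes). Each gene was taken from a probe set with 1 symbol, the one with the highest mean over the 18 arrays where a gene had several, and all 33 were found among 22180 genes. The list was made with earlier results of these data known.

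The arrays came from a study of the reprogramming of mouse cells of strain Black6-129X1/SvJ with OKSM, the factors Oct4, Klf4, Sox2 and Myc. Bulk populations of Rep-MEFs, embryonic fibroblasts of a reprogrammable mouse, expressed OKSM with AGi, that is ascorbic acid and an inhibitor of the kinase GSK3, or OKSM alone, and 1 array per arm was made on days 2, 4, 6, 8, 10 and 12. Single arrays covered Thy1-sorted cells, labelled as refractory Thy1+ cells sorted from Rep-MEFs after 3 days of OKSM, a label that names no AGi. Others covered induced pluripotent stem cells derived from fibroblasts (Fibroblast-iPSC, 4 days of AGi) and from GMPs (GMP-iPSC, 2 days). The rest were wild-type ESCs, GMPs (granulocyte-macrophage progenitors) and Rep-MEFs without induction (MEF). Each condition had 1 array, so the p-values below measure the spread between days, not between cultures. All levels are log2 values after RMA, and a difference of 1 is a 2-fold difference.

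TGF-beta ligands are secreted in a latent complex tethered to the matrix by latent TGF-beta binding proteins. The released ligand joins a type II and a type I receptor, which phosphorylate Smad2 and Smad3, and these enter the nucleus with Smad4 and switch on target genes, including their own inhibitors. In fibroblasts the pathway is known for driving matrix production and the actin-rich, contractile myofibroblast state, together with the transcription factors Srf, Mrtf, Yap and Tead.

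Averaged over the 6 days, 26 of the 33 genes were lower with AGi than with OKSM alone, none was higher, and 7 did not pass the test. The test was limma on 13865 genes with day as a block, at a Benjamini-Hochberg adjusted p under 0.05. Over all genes tested the same rule called 19.3% lower and 19.6% higher, and the median difference was 0.00, against -0.65 for the 33 genes. Of the 19 components 13 were lower (median -0.52), and of the 14 targets 13 were lower (median -0.88), among them all 9 contractile and adhesion genes (median -1.08). On all 6 days in a row 22 of the 33 genes were lower with AGi, which was so for 18.5% of the genes tested. The difference between the classes was not tested.

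**Figure D1:**
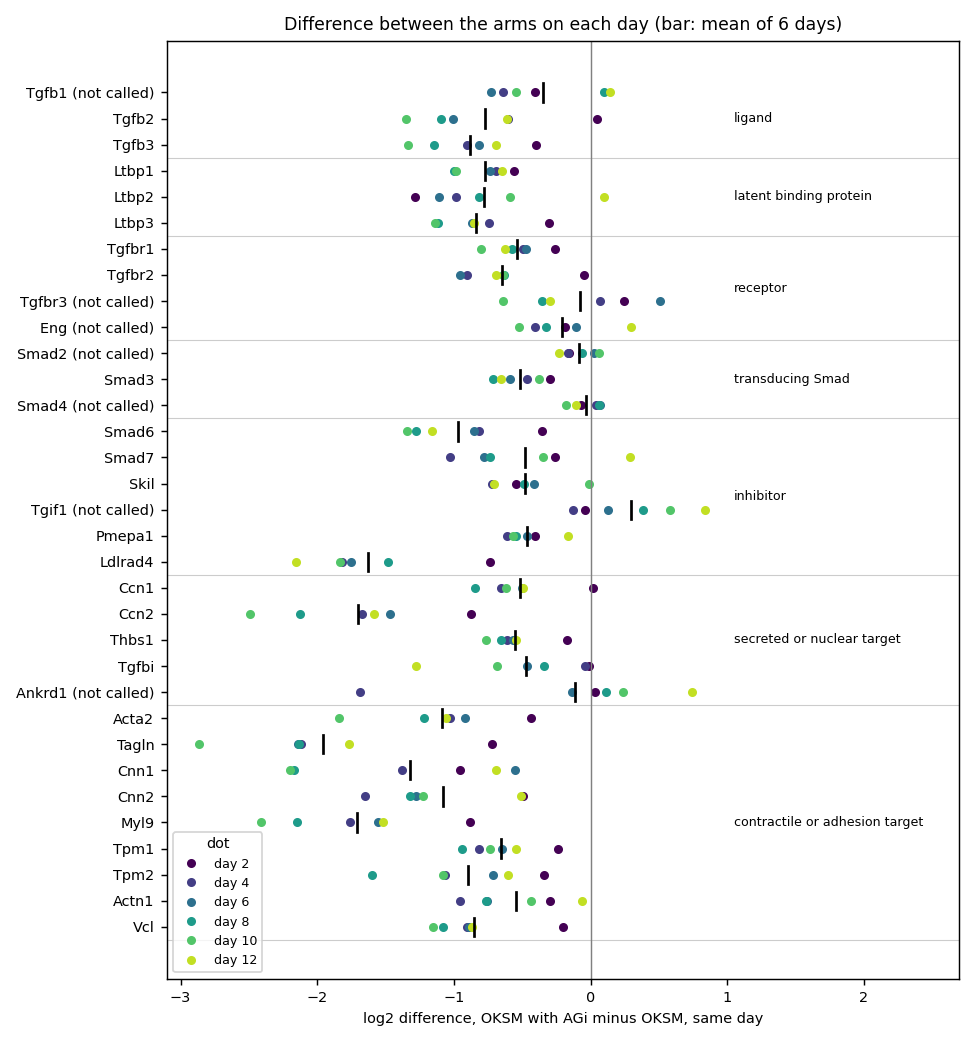
The log2 difference of OKSM with AGi minus OKSM is plotted for each gene (rows, grouped by role) with a dot for each day, coloured by day, and a black bar for the mean of the 6 days. The dots of all 9 contractile and adhesion genes lie left of 0 on every day, while those of Smad2 and Smad4 straddle 0.

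A technical measure moved with the arms. The 18 hybridisation control probe sets, which read labelled control transcripts added at hybridisation, were on average 0.17 ± 0.07 (SD, 6 days) higher with AGi, higher in 18 of 18; flipping the signs of the 6 days gave p = 0.03125 (exact, two-sided), the smallest possible. If every array is shifted by its controls, all differences become more negative by that amount and the calls over all genes turn to 5279 lower and 1055 higher, against 2675 lower and 2722 higher without the shift. With it Tgfb1, Eng, Smad2 and Smad4 were also called lower (limma adjusted p = 0.0114, 0.014, 0.0277 and 0.0354). Tested against the largest mean control difference (0.26) in place of 0, 17 of the 33 genes were lower (limma), 7 components and 10 targets, against 5.44% of all genes. Its part in the smaller differences below was not tested, and genes named as passing the stricter test are marked as such.

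The ligands differed in how they behaved. Tgfb3, which encodes an isoform of the ligand, had a lowest, median and highest level of 9.88, 10.31 and 10.67 with AGi, against 10.70, 11.14 and 11.54 with OKSM alone. The 2 ranges did not overlap, and the mean difference was -0.88 ± 0.12 (SE, limma adjusted p = 0.00177), also passing the stricter test. Tgfb2 was 0.05 higher with AGi on day 2 and lower on the 5 days after it, by up to 1.35 on day 10, for a mean of -0.77 ± 0.17 (adjusted p = 0.00976 by limma). Tgfb1, the isoform abundant in blood cells, was lower on 4 of 6 days and higher on days 8 and 12 (0.10 and 0.14), and its mean of -0.35 ± 0.13 missed the threshold (limma adjusted p = 0.0698). It was called lower on days 2, 4 and 6 alone (-0.59, limma adjusted p = 0.0279) and without day 12 (-0.45, limma adjusted p = 0.0287).

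The 3 latent binding proteins, which hold the ligand in the matrix, were all lower with AGi. Ltbp1 levels were 8.90, 9.14 and 9.38 (lowest, median, highest) with AGi, against 9.63, 9.77 and 10.38 with OKSM alone, with no overlap, and the difference of -0.77 ± 0.08 had the smallest SE of the 3 (limma adjusted p = 0.000864). Ltbp3 differed by -0.84 ± 0.11 (limma adjusted p = 0.00176), and it and Ltbp1 passed the stricter test. Ltbp2 differed by -0.78 ± 0.17 (limma adjusted p = 0.00914), with -1.29 on day 2 and 0.10 on day 12. A probe set with several symbols also carries Ltbp2 and was not used.

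Of the receptors, the 2 signalling ones were lower and the 2 co-receptors were not called. Tgfbr1, the type I receptor kinase, was lower on 6 of 6 days and differed by -0.54 ± 0.08 on average (limma adjusted p = 0.00213, also in the stricter test). Tgfbr2, the type II receptor, was at 8.93, 9.66 and 10.07 with AGi, against 9.89, 10.24 and 10.39 with OKSM alone, and differed by -0.65 ± 0.12 (limma adjusted p = 0.00463), although on day 2 by -0.05 alone. Tgfbr3, the betaglycan co-receptor, was not called on average (-0.08 ± 0.15, limma adjusted p = 0.701): it was higher with AGi on days 2, 4 and 6 (0.24, 0.07 and 0.51) and lower on days 8, 10 and 12 (-0.35, -0.64 and -0.30), and those last 3 days alone gave a call (-0.43, limma adjusted p = 0.0336). Eng, the endoglin co-receptor known from endothelium, differed by -0.21 ± 0.11 (limma adjusted p = 0.152), but was called lower without day 12 (-0.31, limma adjusted p = 0.0206).

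The transducing Smads had the smallest median difference of the roles (-0.09), and 1 of 3 was called. Smad3, which carries the signal to targets, was 9.20, 9.34 and 9.46 with AGi, against 9.63, 9.84 and 9.98 with OKSM alone. Those ranges did not overlap, and the difference was -0.52 ± 0.07 (limma adjusted p = 0.00202, also in the stricter test). Smad2, the other receptor-activated Smad, differed by -0.09 ± 0.06 (limma adjusted p = 0.291, 95% interval -0.23 to 0.06). Smad4, the shared partner, differed by -0.03 ± 0.06 (limma adjusted p = 0.714, 95% interval -0.17 to 0.11), and its levels spanned 10.86 to 11.14 with AGi and 11.00 to 11.10 with OKSM alone.

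Among the 6 inhibitors, which the pathway itself turns on or which block Smads in the nucleus, 5 were lower with AGi. Ldlrad4, which binds receptor-activated Smads and limits the signal, had the largest drop of all components: levels of 8.2, 8.50 and 9.31 with AGi, against 9.95, 10.29 and 10.57 with OKSM alone, a difference of -1.63 ± 0.17 (3.1-fold, limma adjusted p = 0.000864). The 2 ranges did not overlap, and the gene passed the stricter test. Smad6, an inhibitory Smad, differed by -0.97 ± 0.13 (limma adjusted p = 0.00177, also in the stricter test), with -0.36 on day 2 and -1.34 on day 10.

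The other inhibitors moved less. Skil, a nuclear repressor of Smads, had no overlapping levels (7.65 to 8.17 with AGi, 8.19 to 8.43 with OKSM alone) and differed by -0.48 ± 0.10 (limma adjusted p = 0.00733). Pmepa1, which sequesters Smads, differed by -0.46 ± 0.07 (limma adjusted p = 0.00294). Smad7, the second inhibitory Smad, differed by -0.48 ± 0.16 (limma adjusted p = 0.0475), and leaving out any of days 2, 4, 6, 8 or 10 put it above the threshold.

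Tgif1, a homeobox corepressor of Smads, was the one inhibitor with a positive mean, 0.29 ± 0.13 (limma adjusted p = 0.112). Its levels with AGi were 8.48, 8.60, 9.04, 9.35, 9.55 and 9.93 on days 2 to 12, and 8.52, 8.73, 8.91, 8.97, 8.97 and 9.09 with OKSM alone. It was below OKSM on days 2 and 4 and above it on the other 4 days, and on days 8, 10 and 12 alone it was called higher (0.60, limma adjusted p = 0.0151).

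The secreted and nuclear targets came next, of which 4 of 5 were lower. Ccn2, the connective tissue growth factor, had levels of 9.02, 9.98 and 10.48 with AGi, against 11.36, 11.57 and 11.74 with OKSM alone, without overlap. The difference was -1.71 ± 0.19 (3.26-fold, limma adjusted p = 0.00107), and it passed the stricter test. A second probe set of Ccn2, near the array medians, was also lower on all 6 days, by 0.24 on average.

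Ccn1, a matricellular relative of Ccn2, had ranges that overlapped slightly (11.62 to 12.42 with AGi, 12.40 to 12.64 with OKSM alone) and differed by -0.52 ± 0.11 (limma adjusted p = 0.0079). Thbs1, thrombospondin, which can free the latent ligand, differed by -0.55 ± 0.08 (limma adjusted p = 0.00245, also in the stricter test). Ankrd1, a nuclear cofactor and known Yap target, did not pass (-0.12 ± 0.27, limma adjusted p = 0.761), with a difference of -1.69 on day 4 and of -0.14 to 0.74 on the other days.

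Tgfbi, named for its induction by TGF-beta, passed narrowly (-0.47 ± 0.16, limma adjusted p = 0.0495) with a difference of -0.01 on day 2 and -1.28 on day 12. Its levels with AGi were 11.75, 10.39, 9.90, 11.09, 11.09 and 10.75 on days 2 to 12, and 11.76, 10.43, 10.37, 11.43, 11.78 and 12.03 with OKSM alone. Leaving out any of days 6, 8, 10 or 12 put it above the threshold. It stood at 11.71 in GMP and 10.17 in MEF, and the mean of 12 macrophage markers, genes of the lineage that expresses Tgfbi strongly, was 7.91, 6.51, 6.59, 7.20, 6.92 and 7.07 with AGi and 8.15, 6.58, 6.77, 8.05, 8.23 and 8.41 with OKSM alone. Of the 10 macrophage markers tested 7 were called lower with AGi and 1 higher. The 7 became 4 without day 8 or day 12, 3 without day 10, 1 with no replicate block or with day as a number, and 0 in the stricter test. Their part in the Tgfbi difference was not tested.

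The contractile and adhesion genes included the 2 most negative differences of the 33 genes, those of Tagln and Myl9. Tagln, encoding transgelin, an actin-bundling protein of smooth muscle, had levels of 8.50, 9.44 and 10.98 with AGi, against 10.97, 11.58 and 11.82 with OKSM alone, the highest AGi array (day 2) just above the lowest OKSM array (day 12). Its difference was -1.96 ± 0.23 (3.88-fold, limma adjusted p = 0.00132). Myl9, a regulatory light chain of nonmuscle myosin, was at 8.70, 9.27 and 10.34 with AGi, against 10.77, 10.98 and 11.52 with OKSM alone, without overlap (-1.71 ± 0.18, limma adjusted p = 0.000959).

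Cnn1, calponin, an actin-binding regulator of contraction, differed by -1.33 ± 0.24 (limma adjusted p = 0.00483), and by up to -2.20 on day 10. Acta2, smooth muscle actin, had levels of 12.83, 12.08, 12.02, 11.71, 10.97 and 11.62 with AGi on days 2 to 12, and 13.27, 13.11, 12.94, 12.93, 12.82 and 12.68 with OKSM alone. The AGi level was lower on each day, with day 2 with AGi above day 12 with OKSM alone, and the mean difference was -1.08 ± 0.16 (2.12-fold, limma adjusted p = 0.00223).

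Cnn2, a calponin of nonmuscle cells, had non-overlapping levels of 10.37 to 11.44 with AGi and 11.80 to 12.05 with OKSM alone (-1.08 ± 0.16, limma adjusted p = 0.00247). Tpm2 and Tpm1, tropomyosins that coat actin filaments, differed by -0.90 ± 0.15 and -0.65 ± 0.09 (limma adjusted p = 0.00377 and 0.00218). Vcl, vinculin of the focal adhesion, differed by -0.85 ± 0.12 (limma adjusted p = 0.00205), and Actn1, an actinin that crosslinks actin, by -0.55 ± 0.12 (limma adjusted p = 0.00995). Of these 9 genes all but Actn1 passed the stricter test.

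Promoters were read for the targets because Srf acts through the CArG box and Tead through GGAATG. Windows of 250 bases before each RefSeq gene start (GRCm38.p6) were searched on both strands. Of the 33 genes 22 had a window, 11 components and 11 targets, the latter with 8 contractile genes. Among the targets Ccn2, Thbs1 and a contractile gene had no window and were not searched. A CArG box was found in 3 of the 22, all contractile genes (Cnn2, Myl9 and Vcl), against 1.62% of 27025 genes. GGAATG was found in 5 of 11 targets (Acta2, Ankrd1, Ccn1, Tpm1 and Vcl) and in 0 of 11 components, against 14.4% of all genes. CAGAC, the core of the Smad site, was found in 8 of 11 components and 3 of 11 targets, against 45.8% of all genes, and GTCTAGAC in none of the 22, against 0.20%. A match is a description of letters, not a site.

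The stretches below come from targets that were lower with AGi, with the matched letters in capitals (the CArG box in Myl9, Cnn2 and at the start of Vcl, the Tead letters on either strand in the others). They lie at chr2:156775283-156775332 on the plus strand for Myl9, chr10:79988524-79988573 on the plus strand for Cnn2, chr14:20929151-20929280 on the plus strand for Vcl, chr9:67049244-67049289 on the minus strand for Tpm1, and chr3:145650063-145650108 on the minus strand for Ccn1, all written 5′ to 3′ on the gene's strand.
Myl9: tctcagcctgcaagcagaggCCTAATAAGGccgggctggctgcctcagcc
Cnn2: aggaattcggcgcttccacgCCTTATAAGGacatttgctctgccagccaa
Vcl: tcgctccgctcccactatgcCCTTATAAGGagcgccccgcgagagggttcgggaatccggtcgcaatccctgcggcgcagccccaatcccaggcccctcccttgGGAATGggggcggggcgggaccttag
Tpm1: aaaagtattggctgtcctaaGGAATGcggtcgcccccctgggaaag
Ccn1: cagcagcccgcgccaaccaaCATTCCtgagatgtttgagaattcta
Myl9, Cnn2 and Vcl, which hold the CArG box, differed by -1.71, -1.08 and -0.85 between the arms, and Cnn1, which differed by -1.33, held neither the CArG box nor GGAATG in its window.

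**Figure D2:**
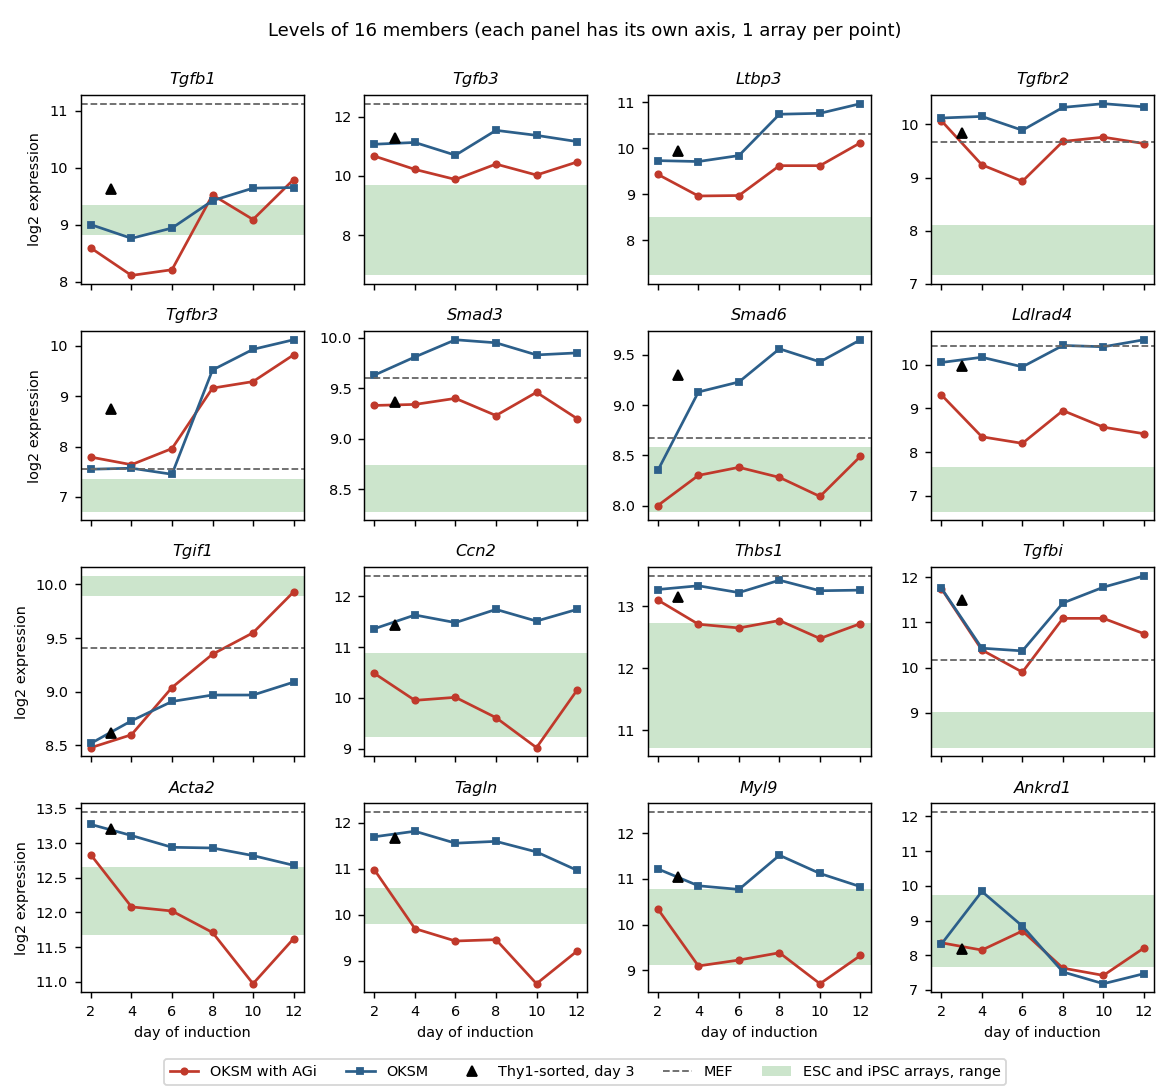
Log2 expression of 16 genes is plotted against the day of induction for OKSM with AGi (red circles) and OKSM (blue squares), with the Thy1-sorted array (black triangle, placed at day 3), the MEF array (dashed) and the range of the ESC and iPSC arrays (green band). Tagln and Myl9 with AGi lie below the OKSM line from day 2 on, Tgfbr3 climbs after day 6 in both arms, and Tgif1 climbs above OKSM from day 6.

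By day, most genes were already lower with AGi on day 2, and the medians were more negative on day 4; days were not tested against each other. The median difference over the components was -0.30, -0.64, -0.73, -0.63, -0.59 and -0.61 on days 2 to 12, and over the targets -0.32, -1.05, -0.73, -1.15, -1.12 and -0.65. On day 2, 29 of the 33 genes were lower with AGi, and on days 4 to 12 between 27 and 31 were, while 46.7% to 52.1% of all genes were lower on a given day. For Tgfb2, Tgfbr2 and Ccn1 the difference was 0.05, -0.05 and 0.02 on day 2, and -0.61, -0.90 and -0.65 on day 4.

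Whether the AGi difference itself changed between days 2 to 6 and days 8 to 12 was tested as a difference of differences with limma, and 0 of the 33 genes passed in either direction, against 1.8% of all genes lower and 0.642% higher. At an unadjusted p under 0.05, 5 of the 33 were more negative late (Tgfbr3, Smad6, Ccn2, Tgfbi and Acta2) and 3 more positive (Tgfb1, Ltbp2 and Tgif1). The same unadjusted rule gave 1422 more negative and 1238 more positive of all 13865 genes. The largest in size are given next. Among those 5 and 3 listed genes the largest in size was Ccn2 (-0.73 ± 0.28, limma adjusted p = 0.208). Tgfbr3 (-0.71 ± 0.16, limma adjusted p = 0.0685) and Ltbp2 (0.69 ± 0.23, limma adjusted p = 0.167) followed. With a slope of the difference per day in place of the 2 periods, Tgfbi was called more negative with time and Ltbp2 and Tgif1 more positive (limma adjusted p = 0.0233, 0.0274 and 0.0177). The same slope fit called 543 more negative and 549 more positive of all 13865 genes.

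Within an arm, ligand, latent binding protein and receptor genes were among those that rose with time. None of the 9 contractile or adhesion genes was called higher in either arm, and the classes were not tested against each other. Of the 33 genes, 6 were higher and 2 lower on days 8 to 12 than on days 2 to 6 with AGi (limma, against 6.58% of all genes higher and 3.95% lower), and 6 higher and 1 lower with OKSM alone (6.95% higher and 3.65% lower). Tgfbr3 rose in both arms, by 1.63 ± 0.18 with AGi and 2.33 ± 0.18 with OKSM alone (limma adjusted p = 0.001 and 4.31e-05). With AGi it was 7.79, 7.64 and 7.96 on days 2, 4 and 6 and 9.16, 9.29 and 9.82 on days 8, 10 and 12, and with OKSM alone 7.55, 7.57 and 7.45, then 9.52, 9.93 and 10.12.

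Tgfb1, Ltbp2, Ltbp3 and Pmepa1 also rose in both arms: Ltbp2 by 1.57 with AGi and 0.87 with OKSM alone, Tgfb1 by 1.16 and 0.67, Ltbp3 by 0.67 and 1.07, and Pmepa1 by 0.72 and 0.65. Ltbp1 was called with OKSM alone (0.51) and Tgif1 with AGi (0.90). For neither gene was the change of the AGi difference between the 2 periods called (limma adjusted p = 0.444 and 0.0834). Acta2 and Tgfbr1 fell with AGi, by 0.88 and 0.49 on the log2 scale, and Ankrd1 fell with OKSM alone, by 1.61. Tgfbr3, Ltbp2 and Tgfb1 with AGi and Tgfbr3 and Ltbp3 with OKSM alone kept the call whichever day was left out. The other calls were lost without at least 1 day: with AGi, 3 genes were called higher without day 4 or without day 12 and 0 lower without day 2, 4, 10 or 12; with OKSM alone, 2 were higher without day 4 or day 8, 3 without day 6 or day 10, and 0 lower without day 10.

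The mean of the 9 contractile and adhesion genes was 10.77, 9.91, 9.95, 9.83, 9.46 and 9.92 on days 2 to 12 with AGi, and 11.28, 11.20, 11.00, 11.32, 11.01 and 10.77 with OKSM alone. In the same arrays the mean of 10 fibroblast markers was 9.57, 8.42, 8.69, 9.66, 9.53 and 9.94 with AGi and 9.95, 9.36, 9.32, 10.38, 10.51 and 10.56 with OKSM alone. Between days 6 and 8 the fibroblast marker mean was higher on the later day in both arms, while the contractile mean was slightly lower with AGi and slightly higher with OKSM alone. Of the 10 fibroblast markers 8 were lower with AGi (median -0.74), against 19.3% of all genes. The 8 became 3 with no replicate block, and 4 in the stricter test and on days 2, 4 and 6 alone. The part of these markers in the differences above was not tested. In such bulk arrays, fewer cells of a type and less RNA per cell cannot be told apart.

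**Figure D3:**
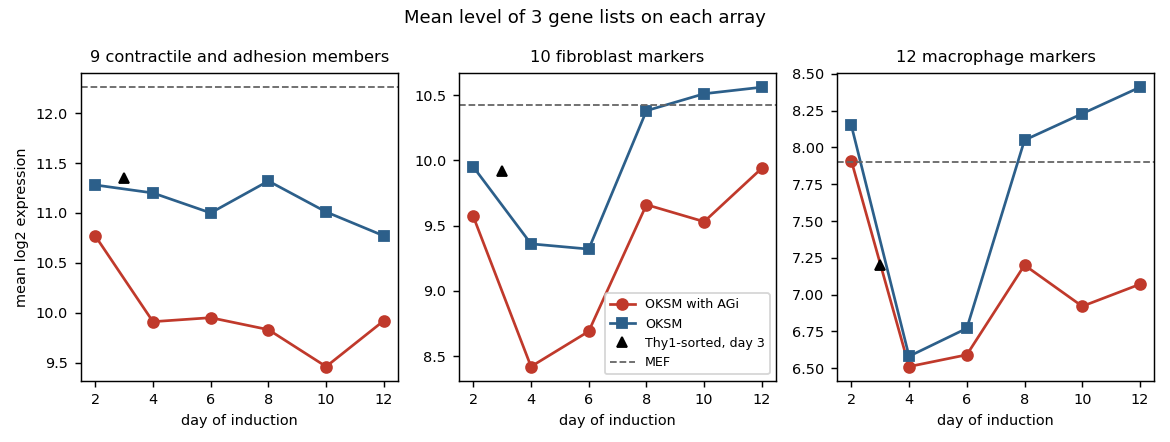
The mean log2 level of the 9 contractile and adhesion genes (left), 10 fibroblast markers (centre) and 12 macrophage markers (right) is plotted against day for OKSM with AGi (red) and OKSM (blue), with Thy1-sorted (triangle) and MEF (dashed). The contractile mean stays between 9.46 and 9.95 with AGi from day 4 on, whereas both marker means turn up after day 6.

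Other markers of cell types were counted in the same fit. With AGi 5 of 10 pluripotency markers and 8 of 10 epithelial markers were higher, with Epcam up by 2.40 ± 0.47 (limma adjusted p = 0.00657), while 4 of 6 smooth muscle markers and 3 of 4 endothelial markers were lower. These counts leaned on single days: without day 8, 10 or 12 the pluripotency count was 2, as it was without day 6 and in the stricter test. The epithelial count was 5 without day 8 or day 10 and in the stricter test. The endothelial count was 1 without day 8 or day 12 and 0 without day 10 and in the stricter test. With no replicate block the 3 counts were 1, 3 and 1 (pluripotency, epithelial, endothelial). The smooth muscle count was 2 in the stricter test and on days 2, 4 and 6 alone. On days 8, 10 and 12 alone 1 smooth muscle and 1 endothelial marker were called higher (limma). On those days Des, a smooth muscle marker, was at 7.41, 8.06 and 9.26 with AGi, against 7.17, 6.87 and 7.14 with OKSM alone. Pecam1, an endothelial marker, was at 6.92, 7.77 and 9.12, against 6.35, 6.18 and 6.62. Among the smooth muscle markers Actg2, an enteric smooth muscle actin, differed by -1.53 ± 0.20 (limma adjusted p = 0.00177). Of the myeloid progenitor markers 1 of 5 was lower (Cd34) and 1 higher (Kit).

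A longer list of the pathway was counted in the same way. Of 33 further TGF-beta pathway genes tested 17 were lower and 1 higher (Acvr2b, an activin receptor, by 0.40 ± 0.11), with a median of -0.40. Postn, the matrix protein periostin, was lower by 1.89 ± 0.32, Tgfb1i1, a focal adhesion cofactor, by 1.21 ± 0.14, and Snai2, a mesenchymal transcription factor, by 1.20 ± 0.12 (limma adjusted p at most 0.00378 for the 3). Of 38 further actin and contractile genes 25 were lower and 0 higher (median -0.51), among them Itga11, a collagen receptor (-1.44 ± 0.16), and Myh10, a nonmuscle myosin (-1.09 ± 0.19).

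Of 20 Yap and Tead genes 13 were lower and 0 higher (median -0.43). F3, tissue factor, led them at -1.33 ± 0.26, followed by Lats2, the kinase that restrains Yap, at -1.14 ± 0.13, and Dlc1 at -1.10 ± 0.20 (limma adjusted p = 0.00602, 0.0013 and 0.0045). In the stricter test 10 further pathway genes, 11 further actin genes and 8 Yap and Tead genes were lower, and Acvr2b was not called. The 3 lists were chosen with earlier results of these data known and are not independent of them.

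Over the 12 time-course arrays, the 5 genes outside the list whose profile was most like the contractile mean, by Pearson's correlation, were Phldb2 (0.98), Syde1, Fads3, Cald1 and Zfp618 (0.97 each). Of the other listed genes, Thbs1 (0.98), Ccn2 (0.94) and Ccn1 (0.90) were the closest. The components Ldlrad4 (0.89), Tgfb3 (0.88) and Tgfbr1 (0.87) came right after them. The targets Tgfbi (0.40) and Ankrd1 (0.23) were less alike. Among the components Tgfb1 (0.14) and Smad4 (0.13) were not alike and Tgif1 was opposed (-0.60). These values describe 12 arrays from 1 pair of arms sharing a day, and carry no p.

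Against MEF, the first look was at day 2. By at least 1 log2, 14 of the 33 genes were lower in the OKSM with AGi array of day 2 than in MEF (4.55% of all genes), and 11 in the OKSM array of day 2 (3.45%), with 1 array a side and no test. Ankrd1 was at 8.36 and 8.32 in those arrays, against 12.13 in MEF, and Cnn1 at 8.54 and 9.49, against 12.30. Tgfbi was the one gene of the 33 higher by 1 log2 or more in both. Of all genes, 711 of 13790 with AGi and 655 of 13845 with OKSM alone were higher by that much. Throughout, the MEF array stood above all 12 time-course arrays in 20 of the 33 genes, in 13 of 14 targets and 7 of 19 components, where 16.8% of all genes did so. That count was added after the levels had been seen and is a description of 1 MEF array.

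Thy1-sorted cells, which remained Thy1+ after 3 days of OKSM, were lower than MEF by at least 1 log2 in 10 of the 33 genes (3.61% of all genes). Tgfb1, Tgfb2, Tgfb3, Ltbp1, Ltbp2 and Pmepa1 were among them, by between 1.15 and 1.55, as were Ankrd1, Cnn1, Myl9 and Tpm2. Tgfbr3 and Tgfbi were higher by at least 1 log2 (8.74 and 11.49, against 7.55 and 10.17 in MEF), as were 562 of 13731 genes. The contractile mean was 11.35 in the Thy1-sorted array, against 12.26 in MEF, and close to the 11.28 and 11.20 of OKSM on days 2 and 4. Tagln (11.67) and Acta2 (13.20) were near their OKSM levels of day 2 (11.70 and 13.27) and day 4 (11.82 and 13.11).

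In GMP, a blood progenitor, 25 of the 33 genes were at least 1 log2 lower than in MEF (13.2% of all genes). The median was -4.40 for the targets and -1.74 for the components. Tgfb1 and Tgfbi were higher by at least 1 log2 (12.15 and 11.71 in GMP, against 11.12 and 10.17 in MEF), as were 1613 of 14037 genes. In the mean of the 3 pluripotent arrays 23 of the 33 genes were lower than in MEF (12.4% of all genes), including 13 of 14 targets and 8 of 9 contractile genes. The contractile mean was 10.47 in Fibroblast-iPSC, 10.12 in GMP-iPSC and 10.03 in ESC. From day 4 on the contractile mean of the AGi arrays, at 9.46 to 9.95, was below all 3. Gene by gene this was so for 3 of the 9 (Tagln, Cnn1 and Actn1) and for 4 of the 33 genes, against 15.9% of all genes, a count added after the levels had been seen. Tpm1, at 9.90 to 10.22 with AGi on days 4 to 12, lay above the pluripotent arrays (9.12 to 9.79) and below MEF (11.68), and the ranges of the other 5 overlapped the pluripotent range.

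**Figure D4:**
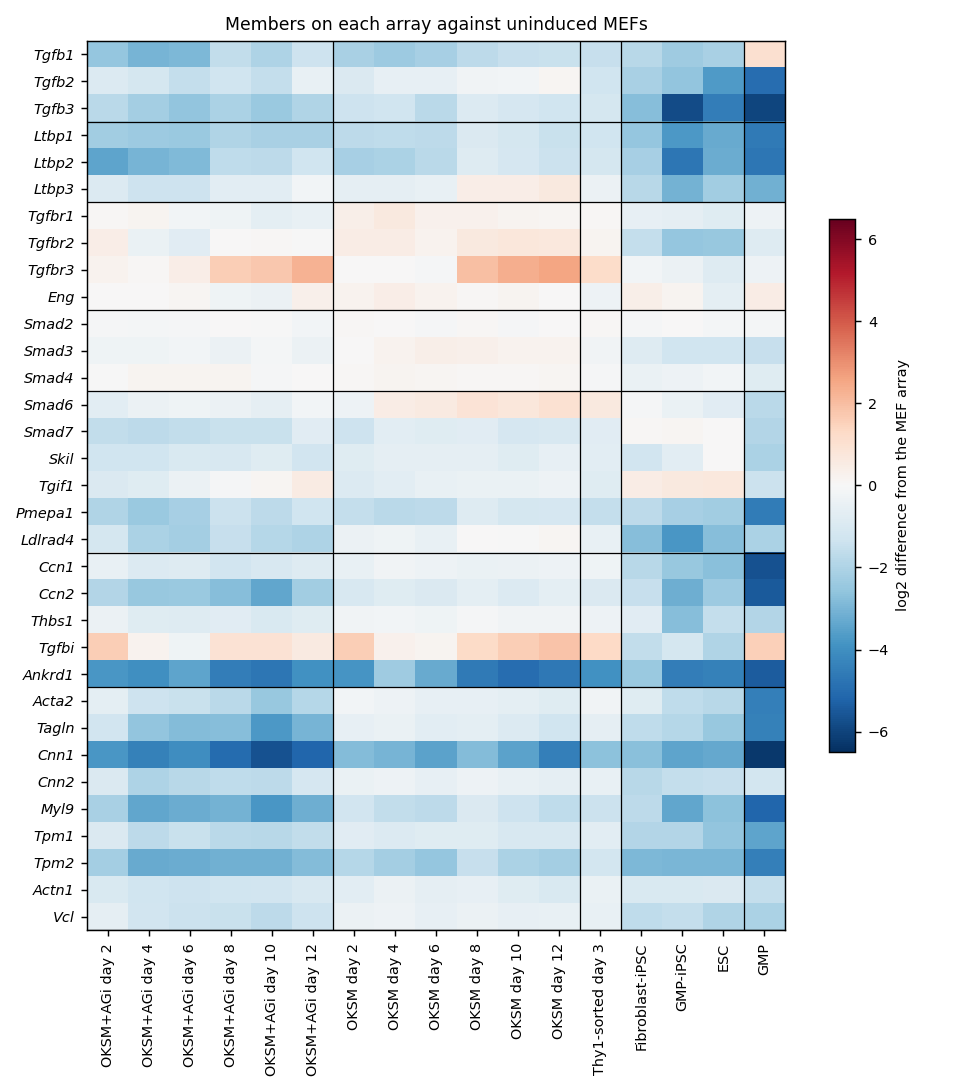
Each cell shows a gene's log2 difference from the MEF array (blue lower, red higher), with the arrays in columns and genes in rows, grouped by role. Targets in the lower rows are blue on nearly every array apart from Tgfbi, while Smad2 is near 0 on every array.

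Among the pluripotent arrays, Fibroblast-iPSC held 5 of the 33 genes at least 1 log2 higher than ESC (2.54% of all genes) and 1 lower (1.66%), and GMP-iPSC held 1 higher (0.95%) and 4 lower (1.16%). Between the 2 iPSC arrays, 9 genes were higher in Fibroblast-iPSC by that much (1.95% of all genes). They were Tgfb3 (9.69 in Fibroblast-iPSC, against 6.64 in GMP-iPSC), Ltbp2 (9.22, against 6.71), Ankrd1, Thbs1, Ccn2, Myl9, Ltbp3, Ltbp1 and Ldlrad4. Fibroblast markers averaged 8.51 in Fibroblast-iPSC, 6.97 in GMP-iPSC and 7.69 in ESC, so they moved with these genes, and their part in the differences was not tested. The labels do not say whether feeder fibroblasts were in these cultures.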

How the data were processed

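The 18 arrays were Affymetrix whole-transcript mouse arrays. The deposited values are log2 expression made by the authors with RMA in Affymetrix Expression Console, per the submitters' processing notes; tool versions and a genome build were not stated in them. The deposited table held 41345 probe sets: 23521 carried 1 gene symbol in the platform annotation, 1814 several, 15820 none, and 190 were controls. These gave 22180 genes, 1082 with more than 1 probe set, of which the one with the highest mean was used; 193 probe sets kept an old symbol. Array medians were 6.32 to 6.46. Precision is limited by how many arrays there are.

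Groups came from the labels, with OKSM with AGi and OKSM at 6 matched days. Of the 12 time-course arrays, 3 or more had to reach their own median for a gene to be tested (13865, all 33 listed genes among them) with limma 3.58.1 in R 4.3.3, after the method was tested on simulated data. The AGi effect used day as a block (5 residual degrees of freedom), its change between days 2 to 6 and days 8 to 12 left 4, and comparisons within an arm left 8, with Benjamini-Hochberg adjustment over all genes tested. The days pair the arms by design, since the labels give the same days to both. Single arrays were compared by a difference of at least 1 log2, without a test, over genes at or above the array's median on any array compared. Python 3.11.15 made the figures. The 33 genes, the further lists, the markers and the rule for named genes (all 33, at most 3 lower and 3 higher of each further list, and the 5 most similar profiles) were chosen with earlier results of these data known. Alternatives covered the filter, probe set choice, normalization, variance model, day term, null difference and days used.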

Additional observations from a re-analysis of the deposited data

Results flagged for a closer look

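Of the 33 day-by-day differences between the arms, 3 had a day far from the other 5, where chance gives about 1 in 20 for independent values. The genes share the same arrays, and the rule was not run on all genes, so the count has no background beside it. The difference of Tgfbr2 was -0.05 on day 2, above the other days. The difference of Vcl was -0.205 on day 2, again the highest. The difference of Ankrd1 was -1.688 on day 4, the lowest. Tgfbr3 was higher with AGi on each of days 2, 4 and 6 and lower on each of days 8, 10 and 12, and the late minus early change of -0.705 had a limma adjusted p of 0.0685.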

How the results depend on the processing

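With no replicate block (day left out), 23 genes were lower and 0 higher (all genes 1829 and 2047; components 11, targets 12; medians -0.52 and -0.88), with Ltbp2, Pmepa1 and Tgfbi losing the call; the difference of differences then called 48 genes lower and 9 higher of all. Shifted by the hybridisation controls, all genes stood at 5279 lower and 1055 higher and the component median at -0.68. Tested against the control difference, 17 of the 33 genes were lower (components 7), and of all genes 754 lower and 429 higher. On days 2, 4 and 6 alone 1034 genes were lower and 799 higher, and Tgfbr3 (0.274), Smad4 (0.014) and Tgif1 (-0.014) changed sign, none of them called; on days 8, 10 and 12 alone 1 gene was higher (Tgif1, thus 1 component), and Ankrd1 changed sign (0.37). Leaving out a day, Ankrd1 lay between -0.289 and 0.198 (positive without day 4) and Tgfbr3 between -0.196 and 0.034 (positive without day 10). A slope per day in place of periods called 1 of the 33 lower and 2 higher (all genes 543 and 549). Quantile normalized again, 902 of all genes were lower late with AGi and 824 with OKSM. Fibroblast-iPSC minus ESC then had 8 of the 33 genes higher, and the share over all genes was not counted. Counting the inhibitors as targets left 8 components lower. At 0.5 log2 the single arrays gave 23 and 18 of the 33 genes lower than MEF at day 2 (AGi, OKSM), and 16 in Thy1-sorted cells. By that cutoff 18 were higher in Fibroblast-iPSC than ESC, and 14 higher in Fibroblast-iPSC than GMP-iPSC. In GMP-iPSC 8 were lower and 5 higher than in ESC. The shares over all genes at 0.5 log2 were not counted, so these counts have no background beside them.

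Leaving out a day in turn, 24 to 27 of the 33 genes were lower (components 12 to 15, targets 12 to 13, medians -0.56 to -0.48 and -0.996 to -0.783), and of all genes 1842 to 2729 lower and 1692 to 2884 higher, the fewest higher without day 8. For the difference of differences 0 to 275 genes were lower and 1 to 176 higher, and 0 of the 33 either way. Late against early with AGi gave 3 to 8 of the 33 higher and 0 to 3 lower (all genes 91 to 1022 and 50 to 456), and with OKSM 2 to 7 and 0 to 1 (409 to 1196 and 122 to 510). The causes were not tested. Each arm and day had 1 array, and 0.26 was the largest mean difference among the controls.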
